A study of Mus musculus with 6 samples.

Results

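Growth hormone reaches the liver in pulses from the pituitary and signals through its receptor, the kinase JAK2 and the transcription factors STAT5a and STAT5b. Active STAT5 switches on growth genes such as Igf1 and also the feedback inhibitors Socs2 and Cish, while the repressor BCL6 binds many of the same sites and opposes it. In rodents the pulse pattern differs between males and females, and it sets the sex-biased expression of many liver genes. The 10 genes described here were listed by symbol as members of this axis: the receptors Ghr and Prlr, the transcription factors Stat5a, Stat5b and Bcl6, the feedback inhibitors Socs2 and Cish, and the secreted proteins Igf1, Igfals and Igfbp1. All 10 were found among 22530 features with at least 1 sense tag. They were chosen with their levels in these libraries known, so their tissue levels and genotype ratios are descriptions and carry no test.

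The libraries came from C57BL/6 mice that were homozygous for an Atxn2 knockout (Atxn2-/-) or wild type (Atxn2+/+), labelled as 6 months old. The protocol text gives ages in weeks, and the labels were followed here. Cerebellum, hippocampus and liver gave 1 library each per genotype, 6 in all, and each library is a pool of 3 animals. MACE (massive analysis of cDNA ends) counts 1 tag near the 3' end of each polyadenylated transcript, so levels can be compared between genes without a length correction. With 1 pool per group no difference has a replicate check, and the intervals below cover counting error only. Atxn2 had 0, 1 and 2 tags in the knockout libraries of cerebellum, hippocampus and liver and 167, 194 and 115 in wild type. The sources do not say which part of the gene was removed. In these bulk tissues, fewer cells of a type and less RNA per cell cannot be told apart.

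Gene tags numbered 1774523 in knockout liver, 2727523 in wild-type liver and 2139501 to 2360459 in the brain libraries. Tissue markers followed the labels, with 7636 and 8697 tags of the Purkinje cell gene Pcp2 in knockout and wild-type cerebellum, 345 and 336 tags of the hippocampal gene Fibcd1 in hippocampus and 78242 and 119139 tags of albumin (Alb) in liver. The extraction protocol lists midbrain and not hippocampus, but Th, which makes dopamine in midbrain neurons, had 1 tag in each hippocampus library. Xist, the RNA that silences an X chromosome in females, was at 0 tags in all 3 knockout libraries, against 34 (cerebellum), 49 (hippocampus) and 87 (liver) in wild type. Genes of the Y chromosome gave tags in both genotypes. In liver, knockout and wild type had 81 and 101 tags of Ddx3y and 64 and 51 of Eif2s3y. Kdm5d had 1 and 2 there, and Uty 7 and 6. After scaling for library depth, the Ddx3y log2 ratio of knockout to wild type was 0.43 (-0.01 to 0.86) in liver. It was 0.04 in cerebellum and 0.37 in hippocampus. For Eif2s3y it was 1.07 (0.52 to 1.63) in liver, 0.58 (0.10 to 1.07) in cerebellum and 0.76 (0.22 to 1.31) in hippocampus. Kdm5d and Uty intervals included equality wherever a ratio was formed. Each wild-type library thus held both Xist and Y tags, and each knockout library Y tags without Xist. The sex of the pooled animals and their genotype therefore cannot be told apart in any ratio below.

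STAT5 dimers bind the palindrome TTCNNNGAA, and promoter stretches of the axis genes that hold it are shown here as sequence only. The windows run from 250 bases before to 50 bases after each annotated start (RefSeq, GRCm38.p6), and 9 of the 10 genes, all but Socs2, matched at least 1 window. The palindrome is its own reverse complement, so both strands were searched at once. It was found in 6 of 17 windows of the axis genes, from 4 genes, against 8.3% of 32851 windows and 9.55% of 27025 genes overall. The axis genes were listed as members of a STAT5 pathway, so nothing is read from these shares. Capitals mark the palindrome, and each stretch is written 5′ to 3′ on the strand of its gene.
Cish, chr9:107296653-107296682, plus strand: ccagttTTCCTGGAAagTTCTTGGAAatct
Prlr, second start, chr15:10223786-10223814, plus strand: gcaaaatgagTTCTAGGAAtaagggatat
Bcl6, first start, chr16:23988952-23988980, minus strand: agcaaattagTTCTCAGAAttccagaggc
Bcl6, second start, chr16:23981353-23981461, minus strand: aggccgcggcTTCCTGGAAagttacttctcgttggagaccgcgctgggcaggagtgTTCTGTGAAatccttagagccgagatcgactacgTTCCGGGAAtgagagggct
Igfals, first start, chr17:24877598-24877626, plus strand: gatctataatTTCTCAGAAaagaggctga
Igfals, second start, chr17:24878163-24878191, plus strand: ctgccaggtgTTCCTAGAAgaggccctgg
The 2 Cish copies begin at base 1 and base 12 of the transcript. The 3 copies at the second Bcl6 start lie 168, 122 and 88 bases before it. A match describes the letters in these windows and shows no binding, and its absence from the Ghr, Stat5a, Stat5b, Igf1 and Igfbp1 windows says nothing of STAT5 elsewhere.

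In liver, the feedback inhibitor Socs2 was 11.9-fold lower in the knockout pool and the repressor Bcl6 was 4.94-fold higher. Stat5a, Stat5b and Ghr had ratios near equality. The Stat5a value rests on 15 and 27 tags (-0.10, -1.12 to 0.86), and the Ghr interval excluded equality with library totals (-0.37 to -0.06). Prlr was 2.8-fold lower and the binding protein gene Igfbp1 2.66-fold higher. Igfals and Igf1 were lower by smaller amounts. A size rule counted a gene as different when its log2 ratio of knockout to wild type was at least 1 in size, its mean level was at least 10 CPM (counts per 1e6 gene tags after TMM scaling), and its 95% counting interval excluded equality. In liver 9 of the 10 genes reached 10 CPM, with 2 higher (Igfbp1 and Bcl6) and 2 lower (Socs2 and Prlr), where 1.53% and 3.41% of 8241 genes were higher and lower (4.94% in either direction). Since the genes were chosen on this contrast, nothing is read from these counts. The median log2 ratio over all 10 genes, with Cish under the level limit included, was -0.21, and that of all genes at 10 CPM was -0.02. The liver split depends on the scaling. Of the genes past the size rule, 31% were higher with TMM, 17.9% with library totals and 41.2% with DESeq2 size factors, and the median of all genes was -0.02, -0.14 and 0.06. The directions of the 4 genes past the rule were the same under all 3 scalings.

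**Figure D1:**
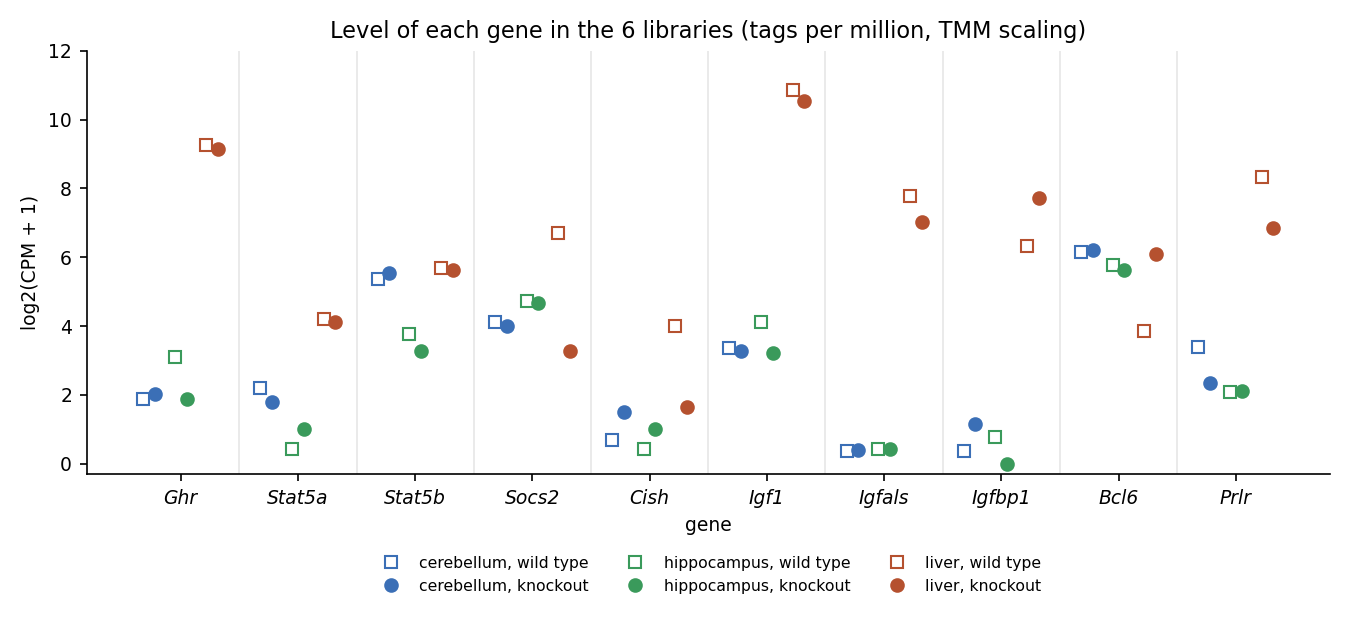
Level of each axis gene in the 6 libraries, as log2(CPM + 1) with TMM scaling. Open squares are wild-type pools and filled circles knockout pools, coloured by tissue, with 1 pool of 3 animals per symbol. Liver symbols lie far above the brain symbols for Ghr, Igf1, Igfals, Igfbp1 and Prlr, and the knockout and wild-type liver symbols are widest apart for Socs2.

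Ghr, the growth hormone receptor (chromosome 15, 3317755 to 3583352), had 527 tags in knockout and 940 in wild-type liver, or 570 and 607 CPM. The log2 ratio was -0.09 (interval -0.25 to 0.06), which includes equality. With library totals the ratio was -0.21 (-0.37 to -0.06), so whether equality is included depends on the scaling. In cerebellum 10 and 9 tags were counted, and in hippocampus 8 and 21 in knockout and wild type. The hippocampus ratio was -1.50 (-2.89 to -0.27) at a mean of 5.07 CPM. Transcripts typical of hepatocytes were also lower in that knockout library: 10 of the 10 hepatocyte markers at 10 CPM passed the size rule as lower, beside 1.05% of all genes. The 14 markers summed to 284 CPM in knockout and 1435 CPM in wild-type hippocampus. Alb alone had 458 and 2465 tags there. Of 4 cerebellum neuron markers at 10 CPM in hippocampus, 2 passed as lower, Pcp2 (27 and 74 tags) and Car8 (18 and 51). Calb1 was higher (0.36, 0.12 to 0.60) and Itpr1 stood at -0.25 (-0.44 to -0.05). The part of either group of transcripts in the Ghr ratio was not tested.

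Ghr is read out as a long transcript for the membrane receptor (650 residues by its coding sequence) and a short one for the soluble growth hormone binding protein (297 residues), which end at different 3' sites and so give separate tags. The short form held 70.7% of 936 assignable tags in wild-type liver (exact binomial interval 67.7% to 73.6%) and 66.5% of 520 in knockout liver (62.3% to 70.6%). The intervals overlap. The long form had 174 tags in knockout and 274 in wild type, a log2 ratio of 0.09 (-0.19 to 0.37), and the short form 346 and 662, a ratio of -0.19 (-0.38 to -0.00). In brain each form had at most 12 tags per library, too few to order the shares.

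Prlr, the prolactin receptor (chromosome 15, 10177238 to 10349190), a close relative of Ghr that also signals through JAK2 and STAT5, had 105 tags in knockout and 493 in wild-type liver, or 114 and 318 CPM. The log2 ratio was -1.49 (-1.81 to -1.18). Cerebellum had 13 and 32 tags, a ratio of -1.25 (-2.31 to -0.28) at a mean of 6.81 CPM, below the level limit. Hippocampus had 10 and 9 tags, a ratio of 0.04 (-1.41 to 1.52). Knockout was thus the lower library in liver and cerebellum, and the hippocampus counts were alike. A further 4 tags lay in rows shared with other genes and were left out.

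Several markers of the choroid plexus, which makes cerebrospinal fluid and is known to express Prlr, were lower in the same knockout cerebellum library. The 12 markers summed to 2839 CPM in knockout and 4000 CPM in wild type, with none at 0 in both. Of the 5 at 10 CPM, 4 had an interval below equality and 1, Kl, passed the size rule as lower, with 35 and 73 tags. Folr1 had 42 and 81 tags, Sostdc1 17 and 40, and Ttr 7929 and 11823. Hepatocyte markers were lower in the same library too, with 318 CPM in knockout and 601 CPM in wild type summed over 14 markers. Of the 9 at 10 CPM, 5 passed the size rule as lower, beside 0.317% of all genes. The part of either group of transcripts in the cerebellar Prlr ratio was not tested.

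The tissues used different forms of Prlr. In liver the short form (310 residues), which lacks most of the signalling tail, held 74.7% of 463 assignable tags in wild type (70.5% to 78.6%) and 77.8% of 99 in knockout (68.3% to 85.5%). In wild-type cerebellum the long form (608 residues) had 28 tags and the short form 4, a short share of 12.5% (3.51% to 29%), and the knockout had 11 and 1. Hippocampus had 9 long tags in each genotype, with 1 short tag in knockout and 0 in wild type. The liver intervals lie above the intervals of all 4 brain libraries. Both forms were lower in knockout liver, the long form with 22 against 117 tags (log2 ratio -1.67, its interval below equality) and the short form with 77 against 346 (-1.42, -1.80 to -1.06).

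**Figure D2:**
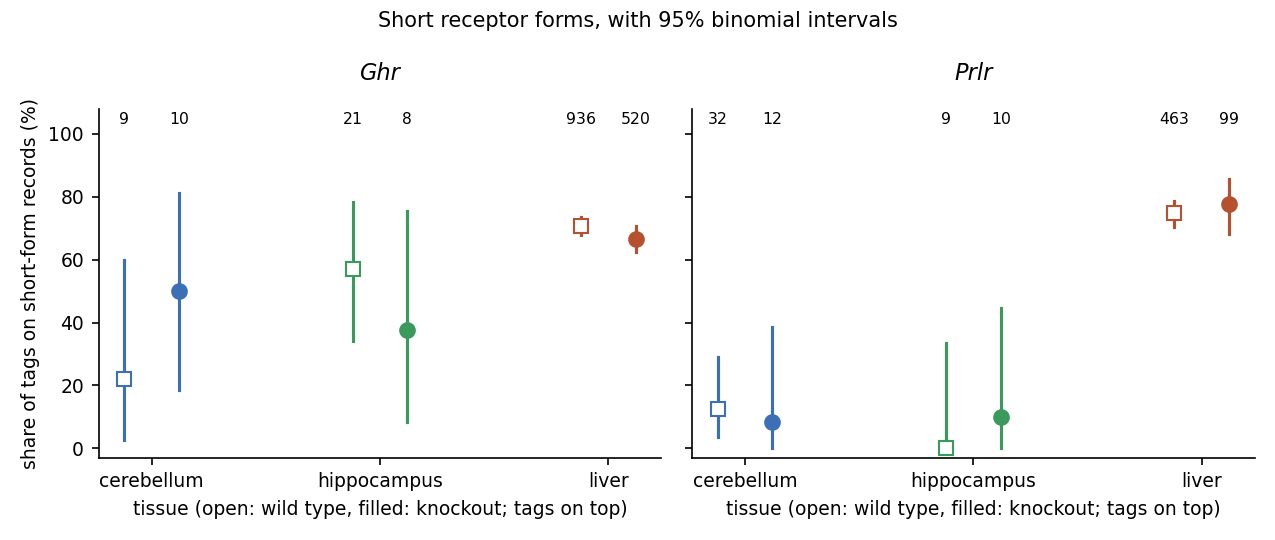
Share of Ghr and Prlr tags (%) on the short-form records in each library, with exact 95% binomial intervals and the number of assignable tags on top. Open squares are wild type and filled circles knockout, coloured by tissue. The Prlr short share is 74.7% and 77.8% in the liver libraries and at most 12.5% in the brain libraries.

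Stat5b (chromosome 11, 100780731 to 100859004), the main STAT5 protein of liver, had 45 tags in knockout and 79 in wild-type liver, or 48.7 and 51 CPM, with a log2 ratio of -0.07 (-0.63 to 0.48). Its ratio was 0.19 (-0.16 to 0.54) from 147 and 133 tags in cerebellum and -0.54 (-1.33 to 0.23) from 26 and 35 tags in hippocampus. All 3 intervals include equality, and the liver value moved to 0.00 with DESeq2 size factors. The neighbouring Stat5a (chromosome 11, 100859351 to 100885169), which has its best known role in the mammary gland, had 15 and 27 tags in liver (-0.10, -1.12 to 0.86) and 8 and 12 in cerebellum (-0.54, -2.03 to 0.87). Hippocampus had 3 and 1 tags, at or under the floor of 3 counts, so no ratio is given.

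Socs2 (chromosome 10, 95383903 to 95417321) encodes a suppressor that binds the activated growth hormone receptor and limits its signal. It had 8 tags in knockout and 159 in wild-type liver, a log2 ratio of -3.57 (-4.81 to -2.56). Cerebellum had 48 and 55 tags (-0.15, -0.74 to 0.44) and hippocampus 74 and 71 (-0.05, -0.54 to 0.44). Wild-type liver was the highest of the 6 libraries and knockout liver the lowest, with the 4 brain libraries between 14.9 and 25.4 CPM. Within wild type, liver was above cerebellum by a log2 of 2.64 (2.19 to 3.11) with TMM and 1.32 (0.87 to 1.79) with library totals. Within knockout, liver against cerebellum was -0.78 (-2.07 to 0.31) with TMM and -2.22 (-3.51 to -1.13) with totals. Liver thus stood above cerebellum in wild type under either scaling, whereas in knockout the interval included equality with TMM.

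Cish (chromosome 9, 107296659 to 107302784), a related inhibitor whose promoter copies of the STAT5 palindrome are printed above, was scarce. It had 2 tags in knockout and 23 in wild-type liver, a log2 ratio of -2.78 (-5.91 to -0.76) at a mean of 8.51 CPM, below the level limit. Cerebellum had 6 and 2 tags (1.63, -0.85 to 4.97), and hippocampus 3 and 1, which gives no ratio. Both feedback inhibitors were therefore lower in the knockout liver pool, Cish on few tags.

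Bcl6 (chromosome 16, 23965050 to 23988866), the repressor that opposes STAT5 at shared sites, had 62 tags in knockout and 21 in wild-type liver, or 67.1 and 13.6 CPM. The log2 ratio was 2.31 (1.57 to 3.09). In brain the genotypes lay close together, with 235 and 234 tags in cerebellum (0.05, -0.21 to 0.32) and 145 and 149 in hippocampus (-0.15, -0.49 to 0.19). Wild-type liver was the lowest of the 6 libraries, with a liver to cerebellum log2 ratio in wild type of -2.37 (-3.09 to -1.72) with TMM and -3.69 (-4.41 to -3.04) with library totals. In knockout, liver to cerebellum was -0.12 (-0.55 to 0.29) with TMM and -1.56 (-1.99 to -1.15) with totals, so whether knockout liver reached the brain level depends on the scaling. BCL6 also acts in germinal-centre B cells and follicular helper T cells. The 8 of 10 lymphocyte markers with a tag summed to 18 tags in knockout and 26 in wild-type liver, or 19.5 and 16.8 CPM. Cd79a made up 9 and 14 of these tags (9.74 and 9.04 CPM), and each other marker had at most 4 tags. The part of lymphocytes in the Bcl6 ratio was not tested.

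Igf1 (chromosome 10, 87858265 to 87937047), the growth factor that liver secretes under growth hormone, was the most abundant of the 10 genes in both liver libraries. It had 1372 tags in knockout and 2853 in wild-type liver, or 1484 and 1843 CPM, a log2 ratio of -0.31 (-0.41 to -0.22). Cerebellum had 28 and 31 tags (-0.10, -0.89 to 0.69). Hippocampus had 25 and 46 tags, a ratio of -0.99 (-1.76 to -0.26) that lies just under the size limit and reached -1.01 with library totals. The hepatocyte transcripts and the cerebellar genes Pcp2 and Car8 described beside Ghr were also lower in the knockout hippocampus library. The cerebellar gene Calb1 was higher there (0.36, 0.12 to 0.60) and Itpr1 stood at -0.25 (-0.44 to -0.05). The part of either group of transcripts in the Igf1 ratio was not tested.

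Igfals (chromosome 17, 24877844 to 24882011) encodes the subunit that holds IGF1 in its large circulating complex. It had 119 tags in knockout and 341 in wild-type liver, or 129 and 220 CPM, with a log2 ratio of -0.77 (-1.09 to -0.47), and 1 tag in each brain library. Igfbp1 (chromosome 11, 7197787 to 7202546) encodes an IGF binding protein that insulin lowers and fasting raises. It had 195 tags in knockout and 123 in wild-type liver, or 211 and 79.5 CPM, a ratio of 1.41 (1.08 to 1.75). Brain libraries held 0 to 4 Igfbp1 tags, so that gene and Igfals were liver transcripts here. The IGF1 and IGFALS transcripts were lower and the IGFBP1 transcript higher in knockout liver, each with an interval that excludes equality.

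**Figure D3:**
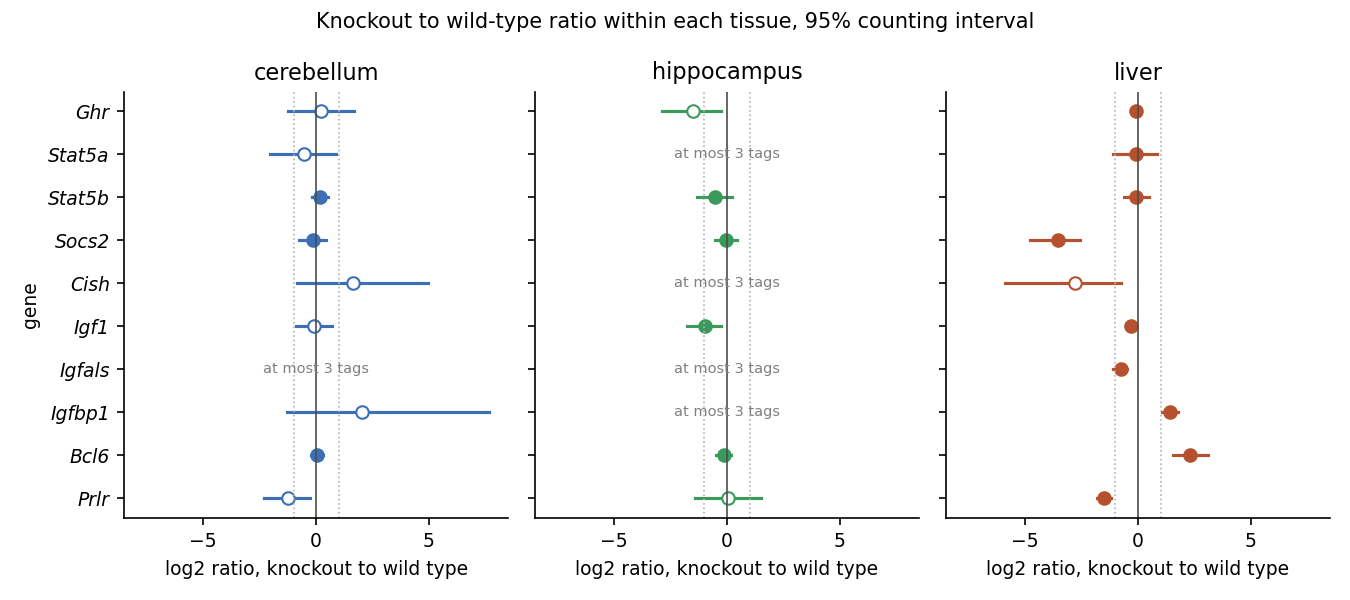
Log2 ratio of knockout to wild type for each axis gene in cerebellum, hippocampus and liver, with exact 95% counting intervals. Filled points have a mean of at least 10 CPM, open points less, and dotted lines mark a log2 ratio of 1 in either direction. Genes with at most 3 tags in both libraries of a tissue have no ratio. In liver Socs2 lies at -3.57 and Bcl6 at 2.31, while both are near 0 in the brain tissues.

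In the brain tissues none of the 10 genes passed the size rule. In cerebellum 3 of the 10 reached 10 CPM (Stat5b, Socs2 and Bcl6), with 0 higher and 0 lower, where 0.129% and 0.317% of 8530 genes were higher and lower (0.445% in either direction). In hippocampus 4 of the 10 did so (Igf1 besides these), again with 0 and 0, where 0.421% and 1.05% of 8551 genes passed (1.47% in either direction). No test exists within a tissue, so these are counts by size only. The genotype contrast in liver was not tested against the contrast in brain.

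Across tissues the 10 genes fell into liver transcripts and genes also present in brain. In wild type, liver exceeded cerebellum 225-fold for Ghr, 198-fold for Igf1, 735-fold for Igfals and 33.2-fold for Prlr with TMM. With library totals the same folds were 90.4, 79.6, 295 and 13.3, since TMM raises liver against cerebellum by a log2 of 1.32 in wild type. The Igfals and Igfbp1 folds rest on 1 tag in wild-type cerebellum, and the Igfals log2 ratio spans 7.03 to 14.83 with TMM. Stat5b had no fixed place: liver to cerebellum in wild type was 0.36 (-0.06 to 0.77) with TMM and -0.96 (-1.38 to -0.55) with totals. Between the brain tissues, wild-type cerebellum exceeded hippocampus by a log2 of 1.67 for Stat5b (1.13 to 2.25), 1.58 for Prlr (0.48 to 2.83) and 0.40 for Bcl6 (0.10 to 0.70) with TMM, and Socs2 was lower there by a log2 ratio of -0.62 (-1.16 to -0.09). For Socs2 the interval included equality with library totals (-0.51, -1.05 to 0.02). Knockout brain kept those directions for Stat5b (2.40, interval above equality), Bcl6 (0.60, 0.30 to 0.91) and Socs2 (-0.72, -1.27 to -0.18), whereas Prlr was 0.28 (-1.02 to 1.63), which includes equality.

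Upstream, the ligand genes Gh and Prl are made in the pituitary, and no ligand or pituitary gene on the list reached 10 CPM in liver. The kinases and adaptors had 11 members at 10 CPM in liver, with 1 higher and 1 lower, beside 1.53% and 3.41% of all genes. Jak2, the kinase bound to both receptors, had 8 and 21 tags in knockout and wild type (-0.65, -2.03 to 0.58). The adaptor Gab1 had 4 and 29 tags, a log2 ratio of -2.11 (-4.08 to -0.60), and Jak3 17 and 13 tags (1.13, 0.00 to 2.29). None of the 4 other STAT genes at 10 CPM passed in liver, where Stat2 was the highest at 0.25 (-0.31 to 0.80). In hippocampus Stat2 was lower, with 26 and 52 tags (-1.11, -1.85 to -0.41). Of 9 inhibitors and phosphatases at 10 CPM in liver none passed, with Pias1 lowest at -0.78 (-2.15 to 0.43). Pias4 and Socs3, another inhibitor of the Socs family, tied as highest, each with 17 and 20 tags (0.51, -0.51 to 1.52). The phosphatase gene Ptpn2 was higher in hippocampus, with 49 and 22 tags (1.04, 0.29 to 1.84).

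Among related cytokine receptors, 2 of 6 were lower in liver, beside 3.41% of all genes. That share also stands beside the other counts of lower genes in this paragraph. The lists were drawn up with earlier results of these libraries known, so nothing is read from these counts. Lifr, the leukaemia inhibitory factor receptor, had 79 and 292 tags in knockout and wild type (-1.14, -1.52 to -0.78), and Il4ra, the interleukin 4 receptor, 24 and 82 (-1.03, -1.75 to -0.36). In the insulin-like growth factor system 1 of 6 was lower: Igfbp3, which carries IGF1 together with IGFALS, had 8 and 33 tags (-1.30, -2.63 to -0.16). Igfbp4 was the highest at 0.43 (0.32 to 0.54). Igfbp2 had 263 and 724 tags (-0.72, -0.93 to -0.51), so the binding protein genes did not share 1 direction. Of 7 Bcl6 relatives and corepressors, the corepressor subunit Tbl1xr1 was lower, with 7 and 28 tags (-1.26, -2.70 to -0.03), and Tbl1x was highest at 0.20 (-0.48 to 0.87).

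The liver transcription factors of the growth hormone response had 12 members at 10 CPM and a median log2 ratio of -0.43. Onecut1, which encodes HNF6, was the lowest, with 5 tags in knockout and 45 in wild type (-2.43, -4.12 to -1.10), and Cux1 the highest at 0.47 (-0.08 to 1.02). Hnf4a, a general hepatocyte factor, was lower by less (-0.40, -0.58 to -0.22). Cebpb passed as lower in hippocampus, with 30 and 57 tags (-1.04, -1.73 to -0.38). Of 14 STAT5 target genes outside the 10, 2 were higher and 2 lower in liver, beside 1.53% and 3.41% of all genes. Ccnd1, the cyclin D1 gene, had 11 and 107 tags (-2.54, -3.58 to -1.64). The other lower one is Onecut1, which is on both lists. Cdkn1a, the cell cycle inhibitor p21, had 59 and 40 tags (1.30, 0.70 to 1.92), and Gadd45g 73 and 60 (1.03, 0.51 to 1.54). The targets past the rule lay on both sides, with a list median of 0.30, and nothing is read from their counts. Fos passed as lower in cerebellum, with 40 and 92 tags (-1.15, -1.73 to -0.60).

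Over these 9 lists together, 67 genes reached 10 CPM in liver, and 3 were higher and 7 lower, which is 4.48% and 10.4%, against 1.53% and 3.41% of all genes. Their median log2 ratio was -0.12, against -0.02. In cerebellum 0 and 1 of 50 passed, beside 0.129% and 0.317% of all genes, and in hippocampus 1 and 2 of 58, beside 0.421% and 1.05%. The lists were drawn up with earlier results of these libraries known, so nothing is read from these shares. The same lists were tested for a genotype effect shared by the 3 tissues with edgeR's quasi-likelihood test, tissue as block, where p measures agreement between tissues of the same pools. Of 11358 genes tested, 0.0088% were called higher and 0.088% lower at an adjusted p of 0.05 (Benjamini-Hochberg). None of the 77 listed genes tested was called. An unadjusted p under 0.05 was found for 8 of the 77 with edgeR, beside 4.86% of all genes tested. With limma voom it was found for 6 of the 77, beside 4.33%. DESeq2, run without that filter on 104 listed genes, gave 1, beside 0.528% of all genes. Limma voom and DESeq2 called no listed gene. Nothing is read from these shares, for the reason given above. Igfbp3 had the smallest p of the 77 (log2 -0.92, adjusted p = 0.872, edgeR quasi-likelihood).

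Many sex-biased liver genes are known to follow this axis. Of 23 female-biased genes at 10 CPM, 19 were lower and 0 higher in knockout liver, beside 3.41% and 1.53% of all genes. Their median log2 ratio was -4.54, in which counts of 0 are set to 3 tags. The median gene itself had 0 tags in knockout, so the size of the median depends on that floor. A1bg had 0 and 899 tags in knockout and wild type. Cyp2a4, a steroid hydroxylase, had 2 and 580 tags and the sulfotransferase gene Sult2a1 1 and 234. Cux2, a female-specific liver repressor of male-biased genes, had 0 and 12 tags. Of 22 male-biased genes, 3 were higher and 1 lower, beside 1.53% and 3.41% of all genes, with a median of 0.36. Their intervals lay above equality for 13 and below it for 6. The higher ones were Cyp4a12a, with 327 and 173 tags (1.66, 1.39 to 1.94), Rgs16 (1.46, 0.86 to 2.07) and Mup21 (1.37, 1.16 to 1.59). Ugt2b38 was the lower one, with 8 and 30 tags (-1.16, -2.50 to -0.00). The 14 hepatocyte markers had a median of 0.32 in the same contrast. The female-biased list was lower in the liver library where Xist was at 0 tags, while the male-biased list lay on both sides. Both lists were drawn up with earlier results of these libraries known, so nothing is read from their shares. The part of sex in the Socs2, Bcl6, Prlr and Igfbp1 ratios cannot be told apart from genotype.

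**Figure D4:**
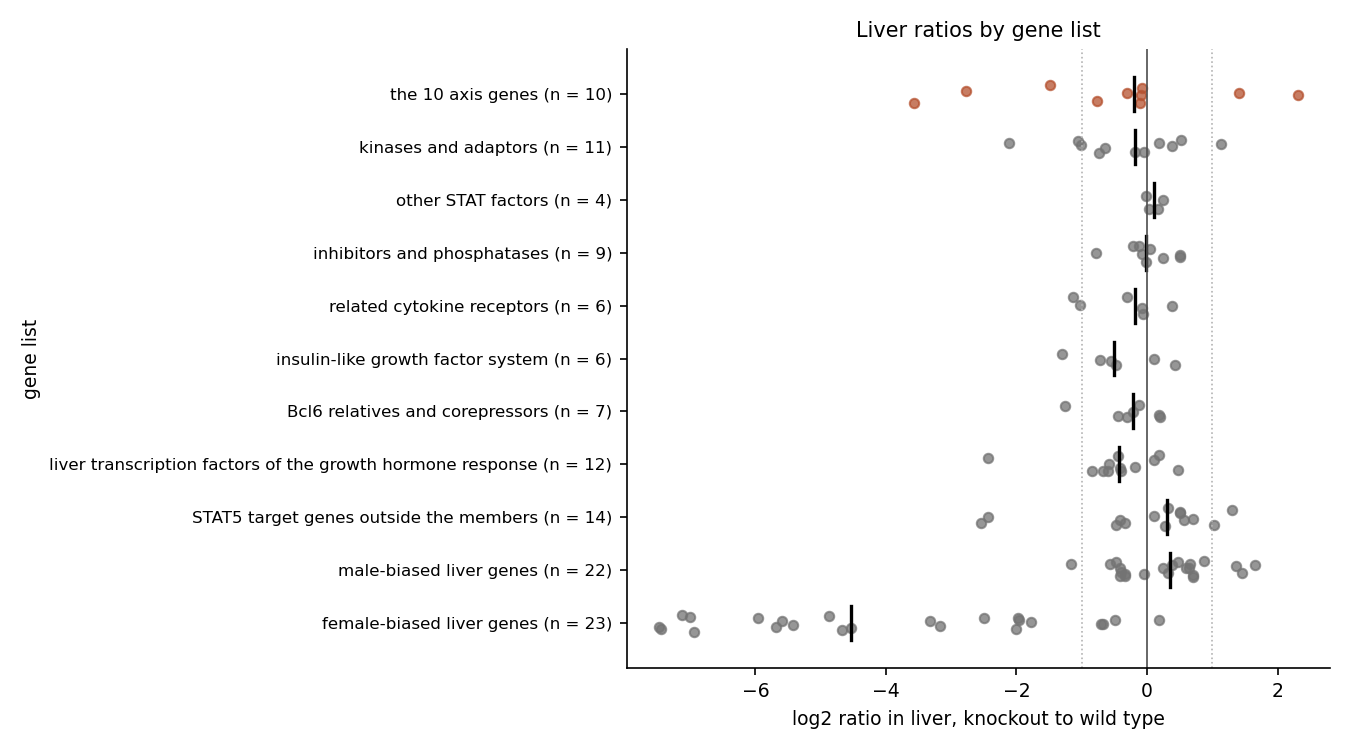
Log2 ratio of knockout to wild type in liver for the 10 axis genes (Cish included) and for listed genes with a mean of at least 10 CPM, 1 point per gene, with a black bar at each list's median. Dotted lines mark a ratio of 1 in either direction, and a gene with 0 tags is placed at 3 tags. The female-biased list has a median of -4.54, while the axis genes spread from -3.57 to 2.31.

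Other liver lists gave further values beside the axis. Of 16 genes of the fasting, insulin and glucocorticoid response, under which Igfbp1 also falls, 1 was higher and 1 lower. Of all genes, 1.53% were higher and 3.41% lower. The higher one was Cdkn1a and the lower one Fkbp5, with 17 and 61 tags (-1.10, -1.97 to -0.30). The list median was 0.10. The 13 clock genes had none past the rule. Of 14 acute phase genes, 4 were higher, beside 1.53% of all genes, among them Orm2 (1.55, 1.26 to 1.85) and Hp (1.31, 1.27 to 1.36), and Saa3 was lower (-2.04, -3.32 to -0.96). Of the 2 neutrophil markers at 10 CPM in liver, S100a9 was higher, with 19 and 15 tags (1.08, 0.03 to 2.17). S100a8 stood at 0.74 (0.03 to 1.46), and each other marker had at most 5 tags per liver library. In cerebellum both passed as higher, with 125 and 57 tags of S100a8 and 56 and 24 of S100a9, beside 0.129% of all genes. In hippocampus no neutrophil marker reached 10 CPM. The 14 hepatocyte markers had none past the rule and a median of 0.32.

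Genes with the most similar profile were taken by Pearson's r of log2(CPM + 1) over the 6 libraries, among 10349 genes. The 6 points share library and depth, and r carries no test. For Bcl6 these were Ddx17 (r = 0.997), Nup35 (0.994) and Ranbp3 (0.986), and 13 genes lay above 0.95. For Socs2 they were Lamc1 (0.990), Tfb1m (0.975) and Ccnd1 (0.969), and 4 genes lay above 0.95. Lamc1 had only 4 to 18 tags per library and Tfb1m 1 to 17, so these matches rest on low counts. Ccnd1 shares the low count in knockout liver, as given above. For Prlr the leading genes were Rhoa (0.999), Mrps15 (0.998) and Bbc3 (0.997), with 1505 above 0.95, and for Igfbp1 they were Mrps10, Srd5a1 and Efna1 (all 0.999), with 2020 above 0.95. The value r does not measure the size of a difference: Rhoa ran from 46.6 to 82.7 CPM, and Prlr from 3.22 to 318. The profiles of Bcl6 and Socs2 were thus matched in shape by few genes, and those of Prlr and Igfbp1, high in liver, by many.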

How the data were processed

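The authors deposited raw sense and antisense tag counts for each RefSeq record and library, without normalization, per the file headers. CASAVA 1.8.2 and the build mm9 are named in the submitters' processing notes, whereas the table itself names a GRCm38 set, and no aligner is named. Tags matching several records stand in joint rows of up to 3 records. Sense counts were summed per symbol, with joint rows credited to a gene only where the other records were predicted genes or pseudogenes. Tags assigned to genomic contigs (17.4% to 23.7%) or to nothing (7.81% to 9.82%) stayed out. Ratios used TMM factors (edgeR 4.0.16), exact 95% Clopper-Pearson counting intervals and a floor of 3 counts for a count of 0; no ratio was formed where both counts were at most 3. The cross-tissue fit used edgeR with filterByExpr by genotype, tissue as block and Benjamini-Hochberg adjustment, with DESeq2 1.42.0 (without filterByExpr) and limma 3.58.1 voom as alternatives. The titles number the animals alike in every tissue, so the tissues of 1 genotype were treated as 1 pool, though no label says so. Scripts were tested on simulated data. The genes and lists were chosen with earlier results of these data known. Named genes are the 10, the highest and lowest liver ratio of each list and list members past the size rule (for long lists the 3 most extreme on each side), and the 3 most similar profiles of 4 genes; some are not reported here. Outside that rule, Jak2, Igfbp2, Hnf4a, Cux2 and the cell type markers named were chosen after their values were seen. Receptor forms were assigned by RefSeq record, with coding length from GENCODE M21.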

Additional observations from a re-analysis of the deposited data

How the results depend on the processing

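The ratios of the 10 genes were recomputed with library totals, DESeq2 size factors, rows of a single record and the single highest row per symbol, which gave 89 values, of which 86 stayed within the counting interval and 3 moved beyond it. No ratio past the size rule changed sign. Ghr, whose reported intervals include equality in liver and cerebellum, changed sign with rows of a single record (liver -0.09 to 0.09, cerebellum 0.20 to -0.44). Those that moved were liver Ghr (0.09) and Igf1 (-1.84) with rows of a single record, which for these genes hold few of the tags or 1 form only, and liver Igf1 with library totals (-0.44). Liver counts of the 10 genes were 2 higher under every setting and 2 or 3 lower, Igfals passing at a fold limit of 1.5 and Cish at a mean CPM of 5. In cerebellum 1 was lower at a mean CPM of 5 (Prlr), and in hippocampus 1 was lower with library totals, with DESeq2 size factors and at a fold limit of 1.5 (Igf1), and 1 at a mean CPM of 5 (Ghr). Over all genes, cerebellum had 11 higher and 27 lower, which became 34 and 45 with library totals, 113 and 174 at a fold limit of 1.5, and 69 and 66 at a mean CPM of 5. Hippocampus had 36 and 90, which became 343 and 304 at a fold limit of 1.5 and 88 and 198 at a mean CPM of 5. Liver had 126 and 281, with 54 higher under library totals and 339 and 551 at a fold limit of 1.5. The cross-tissue fit called 1 higher and 10 lower genes. DESeq2, which also tested the genes that filterByExpr removes, called 0 and 2, DESeq2 size factors in edgeR 0 and 5, limma voom 6 lower, no filter 26 and 71, and no tissue block 0 and 0. Leaving out 1 tissue gave 5 to 20 higher and 17 to 86 lower, the most lower ones without liver. Without a filter 1 listed gene, Onecut1, was called lower. The cause of these shifts was not tested. No paired analysis was possible because each group within a tissue is 1 pooled library, so replicates cannot be paired, and the tissue block of the cross-tissue fit sets the genotypes against each other within tissues. In brain, 7 of the 10 genes in cerebellum and 6 in hippocampus lie under 10 CPM, and most of their intervals include equality or no ratio could be formed.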
